A study of Mus musculus with 3 samples.

Results

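Interferons are signalling proteins that cells release on sensing viruses or microbes. Type I interferons bind a receptor made of Ifnar1 and Ifnar2 and lead a complex that holds Stat2 and Irf9 to DNA elements called ISREs, whereas interferon gamma binds Ifngr1 and Ifngr2 and acts through elements called GAS. The genes switched on in this way hinder viruses and intracellular microbes, and several of them are also kept on at a low level without infection. In bone marrow, interferons are known to act on blood-forming stem cells and on the cells that build and resorb bone, and in mice they raise Sca-1, the surface protein used in this sort.

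The genes described here are 43 members of the interferon pathway, namely receptors, transcription factors and stimulated genes, taken from a named list. That list was chosen with earlier results of these data known. The 43 genes were found by single symbol in the array's probe annotation. Of these, 41 had a probe set of their own, out of 18193 genes in all. Isg15 was covered only by a probe set that lists 2 genes, and Ifi44 was not analysed here. For each gene the probe set with the highest mean signal over the 3 arrays was used. Members were told apart by the interferon that textbooks give as their stronger inducer: 26 of those measured are type I-led, 8 are interferon gamma-led and 7, the receptors with Irf2, Irf5 and Stat3, are led by neither.

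The cells came from the collagenase-treated thigh and shin bones of C57BL/6 mice, whose number, age and sex are not given in the sources used here. They were depleted of CD45, CD31 and Ter119 cells and sorted into ALCAM- Sca-1+ cells (called Sca-1+), ALCAM+ Sca-1- cells (called ALCAM+) and ALCAM- Sca-1- cells (called marker-negative). No group was treated with an interferon. Each population was hybridised to 1 array after RNA amplification, so no difference has a replicate check, no test between populations is possible, and "higher" and "lower" refer to these 3 arrays.

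Values are MAS5 signals, which have no unit, scaled by the authors to the same trimmed mean of 500 on each array. Signals at or below a floor of 75.4, the pooled median of all probe sets, were not ranked, and a fold against such a value is given as "at least". Between 48.9% and 51.4% of probe sets lay above the floor on the 3 arrays, and 12643 genes did so on at least 1 array. For scale, 2 probe sets of the same gene, both above the floor on every array, disagreed with an SD of 0.67 on the log2 scale for Sca-1+ over marker-negative cells, 0.75 for Sca-1+ over ALCAM+ cells and 0.54 for ALCAM+ over marker-negative cells (4152 genes). The spread between sorts and mice was not measured. In such bulk samples, fewer cells of a type and less RNA per cell cannot be told apart.

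The sorted populations were checked against marker genes. Fibroblast and progenitor markers summed to 119322 in Sca-1+ cells, 6104 in ALCAM+ cells and 3468 in marker-negative cells. Osteoblast markers summed to 11367, 174577 and 69190 in the same order, and red cell precursor markers to 368, 445 and 23741, so the marker-negative array carried the RNA of such precursors despite the Ter119 depletion. Cartilage cell markers had the largest sums, 5893 in Sca-1+ cells, 248703 in ALCAM+ cells and 204203 in marker-negative cells, and 10 of 10 were at least 4-fold lower in Sca-1+ cells in both comparisons. The Sca-1+ array thus differed from the other two in its make-up of cell types, and the part of that in the members' differences was not tested. Blood cell genes were not all absent from the others: Ptprc, which encodes CD45, had 163.2 in Sca-1+ cells, 11.6 in ALCAM+ cells and 159.4 in marker-negative cells.

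The 41 members as a group had their signals highest in Sca-1+ cells. All 41 lay above the floor there, against 31 in ALCAM+ cells and 31 in marker-negative cells. Of all probe sets 48.9%, 49.7% and 51.4% exceeded it on the Sca-1+, ALCAM+ and marker-negative arrays. Those shares count every probe set, whereas each member was read by its brightest. They are also set by the choice of the pooled median as the floor. They are therefore no background for the member counts, and the share of genes on each array is not given here. On every array 29 members exceeded the floor, as did 9879 of all 12643 measured genes. On the Sca-1+ array alone 8 members did (Ifit1, Oasl2, Usp18, Stat2, Oas2, Dhx58, Mx1 and Mx2), so these had to be highest there. The share of all genes seen on that array alone is not given here. The Sca-1+ array gave the highest signal of the 3 for 36 members, those 8 included, where 38.7% of all measured genes did so. ALCAM+ cells had the highest signal for 3 members (Ifitm1, Irf2 and Ifngr2; background 28.1%) and marker-negative cells for 2 (Isg20 and Irf8; background 33.2%).

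**Figure D1:**
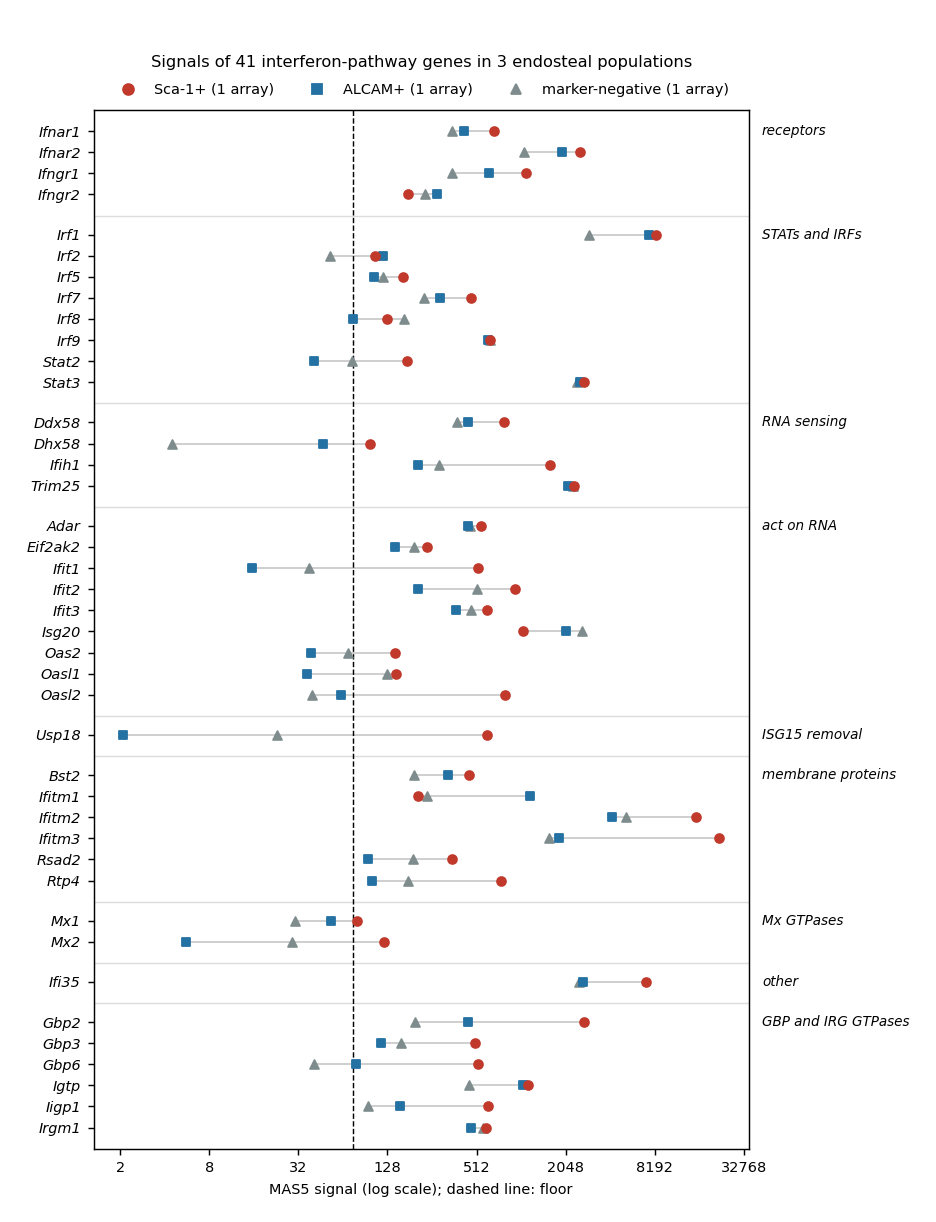
MAS5 signal (log scale) of the 41 members with a probe set of their own, by role, with 1 point per array: Sca-1+ (red circles), ALCAM+ (blue squares) and marker-negative cells (grey triangles). The dashed line is the floor of 75.4; red circles lie to the right for 36 members, while Ifitm1, Irf2, Ifngr2, Isg20 and Irf8 have another population highest.

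In Sca-1+ against marker-negative cells, 9 of 41 members were at least 4-fold higher and 0 were lower by that size, where 5.46% of all 12643 measured genes were higher and 4.71% lower. At 2-fold, 20 members were higher and 1 was lower, against a background of 15% and 12.7%. The median log2 difference was 0.96 over members and 0.00 over all measured genes. Since members seen on the Sca-1+ array alone had to be higher there, the 29 members above the floor on every array are also given: 5 of them were at least 4-fold higher, where 4.69% of the 9879 such genes were, and their median was 1.06.

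In Sca-1+ against ALCAM+ cells, 10 of 41 members were at least 4-fold higher and 1, Ifitm1, was lower, beside 5.86% and 3.99% of all genes. At 2-fold, 15 were higher and 1 was lower, beside 15.8% and 11.2%, and the median was 0.72 over members and 0.01 over all genes. Of the 29 members above the floor on every array, 6 were at least 4-fold higher, beside 4.93% of all such genes. This comparison and the one before share the Sca-1+ array, so they are not independent of each other.

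Fewer members were 4-fold apart between ALCAM+ and marker-negative cells, neither of which was selected for Sca-1. Ifitm1 was the 1 member at least 4-fold higher in ALCAM+ cells (background 2.01%), and 0 members were lower by that size (background 2.67%). At 2-fold 4 members were higher (Ifitm1, Irf1, Igtp and Gbp2; background 6.68%) and 3 were lower (Ifit2, Rsad2 and Irf8; background 10.6%). The median over members was 0.00, and over all measured genes it was -0.03.

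The receptors were present on all 3 arrays. Ifnar1 had 675.4 in Sca-1+ cells, 418.5 in ALCAM+ cells and 348.1 in marker-negative cells. Ifnar2, the chain that binds type I interferons most tightly, had 2557 in Sca-1+ cells, 1938 in ALCAM+ cells and 1078 in marker-negative cells, a 2.37-fold difference between the first and the last. Ifngr1, the ligand-binding chain for interferon gamma, had 1101, 620.9 and 348.7 in the same order and was 3.16-fold higher in Sca-1+ cells relative to marker-negative cells. Its partner Ifngr2, the signalling chain, ran the other way with the authors' scaling, with 176.8 in Sca-1+ cells, 274.6 in ALCAM+ cells and 228.4 in marker-negative cells. On arrays scaled on the poly-A controls its log2 difference in Sca-1+ over ALCAM+ cells was 0.32 in place of -0.64. Thus 3 of the 4 receptor chains were highest in Sca-1+ cells, none of them by 4-fold, and the other probe set of Ifnar1 pointed the opposite way against marker-negative cells (50.4 in Sca-1+ cells, below the floor, and 95.4 in marker-negative cells).

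Among the transcription factors, 0 of 8 passed 4-fold in any comparison. Of all measured genes between 2.01% and 5.86% did so in each direction of a comparison, so for 8 genes that count is close to the background. Irf1, a factor induced early by interferon gamma and also by inflammatory cytokines, had 8401 in Sca-1+ cells, 7451 in ALCAM+ cells and 2941 in marker-negative cells. Both marker-positive populations were therefore above marker-negative cells, by 2.86-fold and 2.53-fold, and Sca-1+ differed from ALCAM+ cells by 1.13-fold. Irf7, which amplifies the type I response, had 470.8, 291.5 and 225.8 in Sca-1+, ALCAM+ and marker-negative cells, and was 2.08-fold higher in Sca-1+ cells relative to marker-negative cells. Stat2, a partner in the factor that binds ISREs, had 173.2 in Sca-1+ cells, and 40.6 in ALCAM+ and 73.9 in marker-negative cells lay below the floor, so it was above both other populations in Sca-1+ cells by at least 2.30-fold. Its other probe set was below the floor on every array.

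By their brightest probe sets, the remaining factors were close between populations or dim. Irf9, the DNA-binding partner of Stat2, had 634.1 in Sca-1+ cells, 608.2 in ALCAM+ cells and 626.3 in marker-negative cells. Stat3, which serves mainly the interleukin-6 family, had 2710, 2575 and 2460 in the same order. Those differences are far smaller than the disagreement between probe sets. Another probe set of Stat3 had 1414 in Sca-1+ cells, 1758 in ALCAM+ cells and 808.9 in marker-negative cells. Its log2 difference in ALCAM+ over marker-negative cells was 1.12, where the remaining ones of Stat3 had -0.05 and -0.03. Irf5, a factor of Toll-like receptor signalling, had 162.3 in Sca-1+ cells, 103.7 in ALCAM+ cells and 119.2 in marker-negative cells, and Irf2, which counters Irf1, had 106.2, 119.5 and 52.2. The order of Irf2 between Sca-1+ and ALCAM+ cells also turned round on that scaling. Irf8, a factor of myeloid and B cells, had 127.5 in Sca-1+ cells, 74.7 in ALCAM+ cells and 164.7 in marker-negative cells, an order shared in part with Ptprc, which was also below the floor only in ALCAM+ cells. The part of blood cells in the Irf8 values was not tested.

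Promoters of the listed genes were searched for the elements through which interferons act. RefSeq windows of 300 bases, 250 before and 50 after the start (GRCm38.p6), were at hand for 35 of the 43 genes and for 27025 genes in all. The ISRE core was searched as GAAA, any 2 bases and GAAA on both strands and the GAS element as TTCNNNGAA, which reads the same on both strands. An ISRE core match was found for 16 of the 35 listed genes (45.7%), against 3.99% of all genes, and a GAS match for 13 (37.1%), against 9.55%. The ISRE core was found in 11 of 22 type I-led genes, 4 of 6 gamma-led genes and 1 of 7 genes led by neither. Matches of the motifs overlapped in 2 of 44 listed windows, those of Bst2 and Ifitm3. A match is a run of letters and not a binding site or a cause, and the genes were listed for their known response to interferons.

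The following stretches are shown for some listed genes with a match and for the Ifitm cluster, whose members went opposite ways. Of the former, Ifit1, Gbp2 and Gbp3 passed 4-fold in a comparison, whereas Igtp and Irf1 passed it in none. Oasl2 also passed 4-fold, but its window holds neither motif and is not shown. The choice therefore does not show how often genes with large differences carry a match. The stretches are written 5′ to 3′ on the gene's strand, from RefSeq (GRCm38.p6), and capitals mark ISRE core and GAS matches. In Ifitm3 the GAS match starts between the 2 ISRE cores and overlaps the second, so their capitals run together.
Ifit1 (chr19:34640769-34640828, plus strand, 2 ISRE cores): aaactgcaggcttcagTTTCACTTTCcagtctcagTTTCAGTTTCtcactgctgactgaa
Gbp2 (chr3:142620578-142620637, plus strand, 1 ISRE core): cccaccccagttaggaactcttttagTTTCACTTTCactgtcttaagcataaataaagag
Gbp3 (chr3:142559974-142560033, plus strand, 2 overlapping ISRE cores): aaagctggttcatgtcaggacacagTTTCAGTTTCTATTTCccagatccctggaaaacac
Igtp (chr11:58199491-58199550, plus strand, a GAS match and then an ISRE core): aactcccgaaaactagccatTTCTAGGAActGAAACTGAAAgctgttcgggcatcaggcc
Irf1 (chr11:53769899-53769958, plus strand, 1 GAS match): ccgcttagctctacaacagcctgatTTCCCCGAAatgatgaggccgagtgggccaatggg
Ifitm3 (chr7:141010716-141010775, minus strand, 2 ISRE cores and a GAS match between them): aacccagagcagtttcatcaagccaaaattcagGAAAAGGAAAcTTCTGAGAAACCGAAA
Ifitm2 (chr7:140955962-140956021, minus strand, 1 ISRE core): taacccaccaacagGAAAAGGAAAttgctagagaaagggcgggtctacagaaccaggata
Ifitm1 (chr7:140968016-140968075, plus strand, no match): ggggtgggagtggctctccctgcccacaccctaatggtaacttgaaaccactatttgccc

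**Figure D2:**
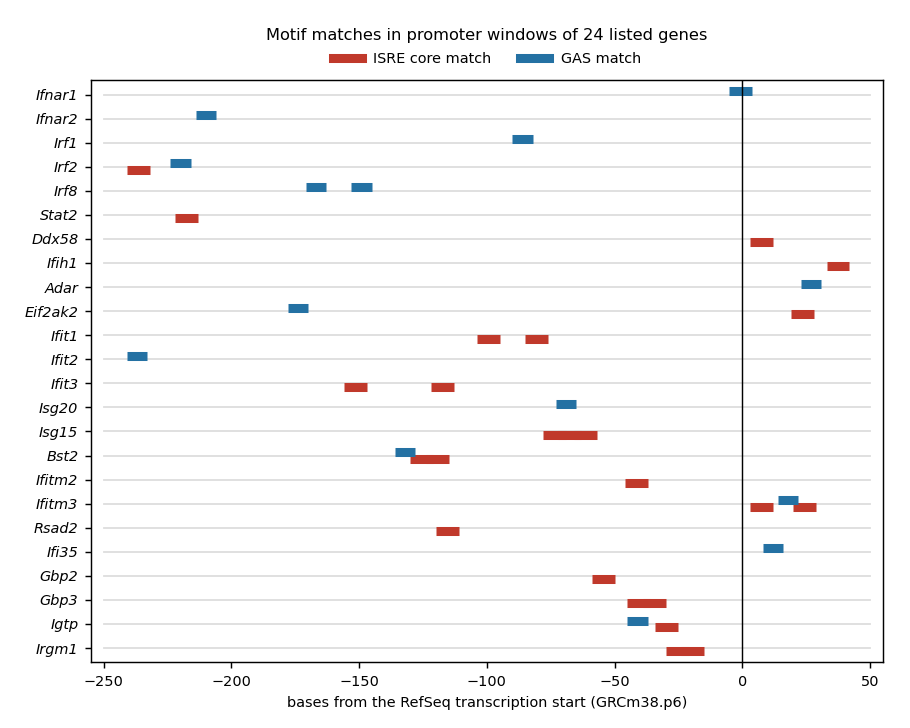
Positions of ISRE core (red) and GAS (blue) matches in the RefSeq promoter windows of the 24 listed genes that hold either, in bases from the transcription start (vertical line); grey lines span the 300-base window. The red marks of Irf2 and Stat2 lie farthest from the start, and Ifitm1 is absent because it holds neither motif.

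The members measured on the arrays with an ISRE core match, 15 in number, had a median log2 difference of 1.24 in Sca-1+ over marker-negative cells, and the 18 with a window but no match had a median of 0.35. Over all measured genes with a window, the median was 0.03 for the 356 with a match, members included, and 0.00 for the 9859 without, and 7.3% and 4.92% of them were at least 4-fold higher. For GAS the corresponding medians were 0.96 for 13 members with a match and 0.98 for 20 without. These are descriptions of letters beside signals, with no test.

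Of the RNA sensors, Ifih1 stood out. It encodes MDA5, a sensor of long double-stranded RNA, and had 1603 in Sca-1+ cells, 205.7 in ALCAM+ cells and 285.1 in marker-negative cells, 7.79-fold and 5.62-fold higher in Sca-1+ cells. All 3 values lay above the floor. Ddx58, which encodes the related sensor RIG-I, had 788.6 in Sca-1+ cells, 449.5 in ALCAM+ cells and 375.4 in marker-negative cells, 2.10-fold higher in Sca-1+ cells relative to marker-negative cells. Dhx58, which encodes the regulator LGP2, was seen above the floor only in Sca-1+ cells, at 97.7, and its other probe sets stayed below the floor on every array. Trim25, a ubiquitin ligase that helps RIG-I signal, had 2328, 2128 and 2289 in Sca-1+, ALCAM+ and marker-negative cells and showed no difference beyond the disagreement between probe sets.

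The Ifit genes form a cluster on chromosome 19 and encode proteins that bind viral RNA. Ifit1 had 523.5 in Sca-1+ cells, against 15.6 in ALCAM+ cells and 38.0 in marker-negative cells, and was above both other populations in Sca-1+ cells by at least 6.94-fold. Ifit2 had 928.7 in Sca-1+ cells, 204.8 in ALCAM+ cells and 519.0 in marker-negative cells, so it was 4.53-fold higher in Sca-1+ than in ALCAM+ cells but only 1.79-fold higher than in marker-negative cells. Ifit3, with 604.9, 372.9 and 471.7, was 1.62-fold and 1.28-fold higher. Members of a single cluster that share inducers thus differed in size, while Sca-1+ cells gave the highest signal for each of the 3 genes. Ifit3 carried 2 ISRE core matches in its promoter, as Ifit1 did.

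The oligoadenylate synthetase family, whose enzymes activate the antiviral nuclease RNase L and whose relatives act in other ways, was led by Oasl2. It had 793.5 in Sca-1+ cells, 62.5 in ALCAM+ cells and 39.6 in marker-negative cells, above both other populations in Sca-1+ cells by at least 10.5-fold. Oas2 had 144.1, 39.0 and 69.2 in Sca-1+, ALCAM+ and marker-negative cells. Oasl1, a restraint on Irf7 in mice, had 146.0 in Sca-1+ cells and 126.3 in marker-negative cells, a 1.16-fold difference, and was below the floor in ALCAM+ cells at 36.3. No ISRE core match was found in the windows of Oasl1 and Oasl2, which says only that those letters are not there.

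The other members that act on RNA were not higher in Sca-1+ cells to the same extent. Eif2ak2, which encodes the kinase PKR, had 235.7 in Sca-1+ cells, 143.0 in ALCAM+ cells and 193.7 in marker-negative cells. Adar, an RNA-editing enzyme, had 552.3, 447.9 and 460.1 in the same order, and for both genes 1 other probe set pointed the opposite way against marker-negative cells. Isg20, an RNA exonuclease, was the 1 member at least 2-fold lower in Sca-1+ cells relative to marker-negative cells, with 1055 in Sca-1+ cells, 2062 in ALCAM+ cells and 2659 in marker-negative cells, a 2.52-fold difference.

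Usp18 removes the ubiquitin-like protein ISG15 from its targets and dampens signalling at the type I receptor. It had 605.2 in Sca-1+ cells, 2.1 in ALCAM+ cells and 22.9 in marker-negative cells. With 2 of its values below the floor it was above both other populations in Sca-1+ cells by at least 8.03-fold.

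Ifitm proteins sit in membranes and block the entry of viruses, and their genes lie together on chromosome 7. Ifitm3 had the largest fold among members measured above the floor on both sides, with 22288 in Sca-1+ cells, 1845 in ALCAM+ cells and 1582 in marker-negative cells, 12.1-fold and 14.1-fold higher in Sca-1+ cells. Ifitm2 had 15654 in Sca-1+ cells, 4183 in ALCAM+ cells and 5246 in marker-negative cells, 3.74-fold and 2.98-fold higher. Ifitm1 did not follow them: it had 207.1 in Sca-1+ cells, 1184 in ALCAM+ cells and 236.8 in marker-negative cells, so it was 5.72-fold lower in Sca-1+ than in ALCAM+ cells and 2.32 higher on the log2 scale in ALCAM+ cells than in marker-negative cells. Neither difference reached 4-fold when the arrays were scaled on control RNAs, as given at the end.

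The fourth gene of that cluster measured here, Ifitm5, is a bone-restricted relative that is not a member of the list. It had 90.2 in Sca-1+ cells, 7744 in ALCAM+ cells and 319.2 in marker-negative cells. Ifitm1 and Ifitm5 thus shared the population with the highest signal, while Ifitm2 and Ifitm3 shared another. Each Ifitm member was read by a single probe set, and how far probes for these similar genes cross-react was not tested.

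Other membrane-linked effectors were highest in Sca-1+ cells. Rtp4, a chaperone of membrane receptors with antiviral activity, had 752.7 in Sca-1+ cells, 100.5 in ALCAM+ cells and 175.7 in marker-negative cells, 7.49-fold and 4.28-fold higher in Sca-1+ cells. Its second probe set was below the floor on every array. With both averaged, the signals of the other populations fell below the floor. The log2 difference was then a lower bound, at least 1.12 in each comparison, so it could not be called at 4-fold. Rsad2, which encodes the antiviral enzyme viperin, had 352.0, 94.7 and 189.5 in the same order, 3.72-fold higher in Sca-1+ than in ALCAM+ cells and 1.86-fold higher than in marker-negative cells. Bst2, which encodes tetherin, a protein that holds budding viruses at the cell surface, had 456.2 in Sca-1+ cells, 329.1 in ALCAM+ cells and 192.7 in marker-negative cells. Outside the membrane-linked group, Ifi35, a partner of the interferon-induced protein Nmi, had 7188, 2701 and 2536, and was 2.66-fold and 2.83-fold higher in Sca-1+ cells. That probe set is of a kind that can read related transcripts. The other Ifi35 probe sets were dimmer, at 1560 and 830.1 in Sca-1+ cells. Their log2 differences were 1.05 and 1.57 over ALCAM+ cells, and 0.88 and 1.05 over marker-negative cells.

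The Mx genes encode dynamin-like antiviral GTPases, and Mx1 is known to be defective in C57BL/6 mice. Mx1 had 79.3 in Sca-1+ cells, 53.5 in ALCAM+ cells and 30.3 in marker-negative cells, and Mx2 had 121.3, 5.6 and 28.8. Both were near the floor or below it on every array, so their differences could not be sized beyond lower bounds of 1.05-fold and 1.61-fold in Sca-1+ cells.

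The GTPases led by interferon gamma act on vacuoles that hold intracellular microbes. Gbp2, a guanylate-binding protein, had 2731 in Sca-1+ cells, 450.3 in ALCAM+ cells and 196.4 in marker-negative cells, 6.07-fold and 13.9-fold higher in Sca-1+ cells. Its other probe set gave 1830, 380.9 and 191.5 in the same order. Gbp3 had 496.0 in Sca-1+ cells, 115.0 in ALCAM+ cells and 157.5 in marker-negative cells, 4.31-fold and 3.15-fold higher. Gbp6 had 522.1 in Sca-1+ cells, 78.4 in ALCAM+ cells and 40.6 in marker-negative cells, 6.66-fold higher than in ALCAM+ and at least 6.92-fold higher than in marker-negative cells. The 3 guanylate-binding genes were thus all highest in Sca-1+ cells, and those with a second probe set kept that order in it for Sca-1+ against the others.

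The immunity-related GTPases were less uniform. Iigp1 had 609.6 in Sca-1+ cells, 155.7 in ALCAM+ cells and 95.2 in marker-negative cells, 3.92-fold and 6.40-fold higher in Sca-1+ cells. Igtp had 1135 in Sca-1+ cells, 1052 in ALCAM+ cells and 452.7 in marker-negative cells, so that, like Irf1, it was close between the marker-positive populations and 2.51-fold and 2.32-fold above marker-negative cells in them. Irgm1, a regulator of the other family members, had 596.4, 471.4 and 562.4 and differed by less than the disagreement between probe sets.

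Type I-led and gamma-led members both had medians above 0 in Sca-1+ cells against either other population. Of 26 type I-led members 6 were at least 4-fold higher than in marker-negative cells, with a median log2 difference of 0.91, and of 8 gamma-led members 3 were, with a median of 1.58. Against ALCAM+ cells the counts were 7 of 26 and 3 of 8, with medians of 0.87 and 1.36. Over all measured genes 5.46% and 5.86% were that much higher in these comparisons. Since Ifit1, Oasl2 and Usp18 were above the floor on the Sca-1+ array alone, members above it on every array are also given: 3 of 17 type I-led and 2 of 6 gamma-led members were at least 4-fold higher relative to marker-negative cells (4.69% of all such genes), and 4 of 17 and 2 of 6 relative to ALCAM+ cells (4.93%). The order of the medians against ALCAM+ cells depended on the floor: they were 1.65 for type I-led and 1.37 for gamma-led members with it at the 25th percentile, and 0.48 and 0.27 at the 75th. In ALCAM+ over marker-negative cells the medians were 0.00 and 0.38. The 7 members led by neither had 0 past 4-fold in any comparison, which for so few genes is close to the share of all genes. Whether the type I-led and gamma-led genes differ was not tested, and many of them respond to both interferons.

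**Figure D3:**
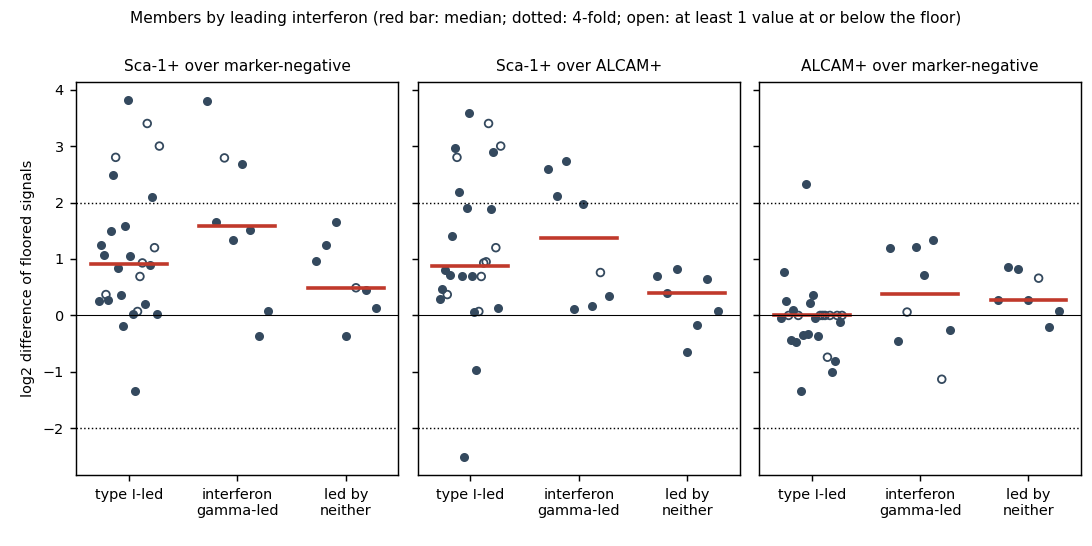
Log2 difference of floored signals for each member, by the interferon that leads it, in the 3 comparisons of single arrays. Red bars are medians (0.91, 1.58 and 0.49 for type I-led, gamma-led and other members in Sca-1+ over marker-negative cells), dotted lines mark 4-fold, and open points have at least 1 value at or below the floor; Ifitm1 is the point beyond 4-fold on the low side in Sca-1+ over ALCAM+ cells.

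Probe sets gave a partial check of the single arrays. Of the 41 members 18 had more than 1 probe set of their own. Against marker-negative cells, 13 of the 18 other probe sets above the floor pointed the same way as the brightest one and 5 did not (Stat3, Ifnar1, Trim25, Eif2ak2 and Adar). Against ALCAM+ cells 14 of 17 did. Members at least 4-fold apart with another probe set above the floor, Gbp2, Gbp6 and Iigp1, pointed the same way in it, and the other members at least 4-fold apart rest on a single probe set above the floor. In ALCAM+ over marker-negative cells, where members differed little, 10 of 18 pointed the same way and 8 did not.

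**Figure D4:**
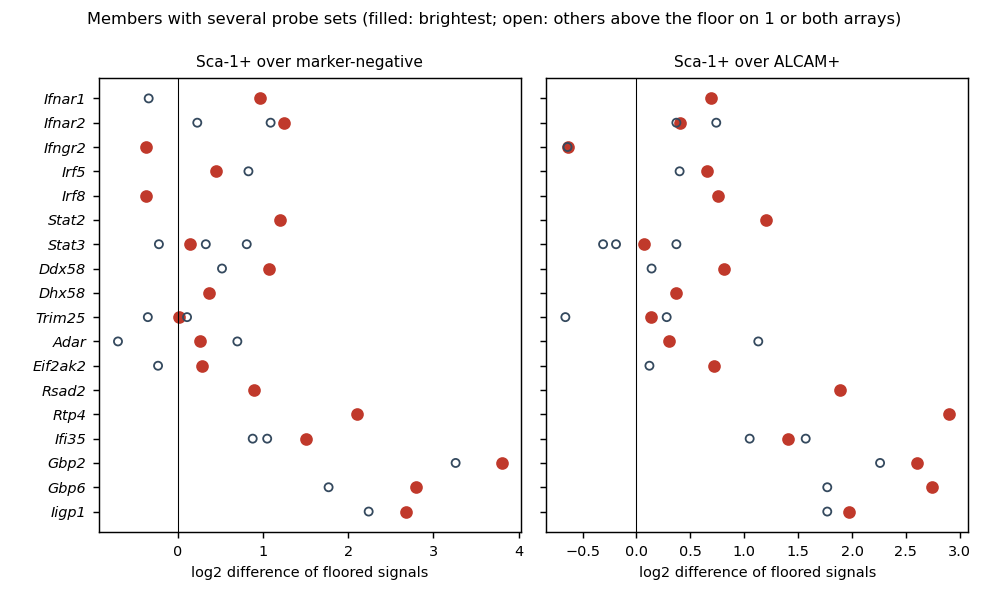
Log2 difference of floored signals for the 18 members with several probe sets, in Sca-1+ over marker-negative and Sca-1+ over ALCAM+ cells. Filled red points are the brightest probe set used in the text and open points the others above the floor on 1 or both arrays; for Gbp2, Gbp6, Iigp1 and Ifi35 all points lie to the right of 0, and for Stat3 and Trim25 they straddle it.

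Other genes of the pathway were taken from lists chosen for what the genes are known to do. These lists were made with earlier results of these data known, so they are not independent of the data. Of 33 other interferon-stimulated genes measured (of 42 listed), 4 were higher by at least 4-fold in Sca-1+ cells relative to marker-negative cells, and 0 lower, and 18 were at least 2-fold higher and 0 lower, beside 5.46% of all genes at 4-fold and 15% at 2-fold. Their median was 1.13. Against ALCAM+ cells 8 were at least 4-fold higher and 0 lower, beside 5.86% of all genes, with a median of 1.35. Ifi204, a DNA-sensing family gene, had 1308 in Sca-1+ cells, 29.2 in ALCAM+ cells and 32.2 in marker-negative cells, above both other populations in Sca-1+ cells by at least 17.3-fold. Ly6e, a relative of the gene for Sca-1, had 6633 in Sca-1+ cells, 297.6 in ALCAM+ cells and 1475 in marker-negative cells, 22.3-fold and 4.50-fold higher in Sca-1+ cells.

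Parp14 and Lgals9 followed the same order of populations in part. Parp14, an ADP-ribosyltransferase gene, had 771.5 in Sca-1+ cells, 55.4 in ALCAM+ cells and 149.0 in marker-negative cells, and Lgals9, which encodes a galectin, had 1794, 162.9 and 673.0. Of the 33 genes measured in this list, 3 were at least 4-fold lower in ALCAM+ cells relative to marker-negative cells and 0 higher. These were Ly6e, Ifi47 and Lgals9, beside 2.67% of all genes lower and 2.01% higher. Of the 41 members 0 were lower by that size, a count close to that share. Ifi47, an interferon gamma-induced GTPase named because it is among those 3, had 542.4 in Sca-1+ cells, 82.0 in ALCAM+ cells and 438.7 in marker-negative cells.

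Of 15 other gamma-linked genes measured (of 26 listed), 2 were higher by at least 4-fold in Sca-1+ cells relative to marker-negative cells, and 0 lower, with a median of 0.54, and 6 were at least 2-fold higher. Against ALCAM+ cells 3 were at least 4-fold higher. Over all genes 5.46% were 4-fold and 15% 2-fold higher in the first comparison and 5.86% 4-fold higher in the second. Psmb8, an immunoproteasome subunit, had 918.5 in Sca-1+ cells, 86.3 in ALCAM+ cells and 62.5 in marker-negative cells. Tap2, a subunit of the peptide transporter for antigen presentation, had 785.1, 204.2 and 193.6 in the same order. Cxcl10, a chemokine gene induced by both kinds of interferon, had 890.0 in Sca-1+ cells, 221.8 in ALCAM+ cells and 239.2 in marker-negative cells, 4.01-fold and 3.72-fold higher in Sca-1+ cells. Psmb9 had 338.6 in Sca-1+ cells, 65.4 in ALCAM+ cells and 121.5 in marker-negative cells.

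Of 9 measured genes that sense nucleic acids or induce interferons, 1 was higher by at least 4-fold in Sca-1+ cells relative to marker-negative cells (3 at 2-fold, with a median of 0.82), where 5.46% of all genes were: Tlr3, the receptor for double-stranded RNA in endosomes, with 445.4 in Sca-1+ cells, 254.5 in ALCAM+ cells and 101.6 in marker-negative cells. Ikbke, a kinase that activates interferon regulatory factors, had 250.4, 42.3 and 30.7, and Mavs, the adaptor of RIG-I and MDA5, had 1043, 408.0 and 356.6 in the same order. Of the receptor kinases, Jak1, shared by both receptor types, had 4935 in Sca-1+ cells, 3017 in ALCAM+ cells and 2063 in marker-negative cells, and Tyk2, of the type I receptor, had 603.3, 340.2 and 286.6. Jak2, of the interferon gamma receptor, had 1472 in Sca-1+ cells, 2219 in ALCAM+ cells and 2159 in marker-negative cells.

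Of the 8 measured JAK genes and inhibitors of the pathway, listed apart from Usp18, 0 were at least 4-fold apart between Sca-1+ cells and either other population. Of all genes 5.46% were higher and 4.71% lower by that size against marker-negative cells, and 5.86% and 3.99% against ALCAM+ cells. For 8 genes a count of 0 is close to that background. Socs1, a brake on interferon signalling and itself interferon-induced, had 150.3 in Sca-1+ cells, 176.0 in ALCAM+ cells and 190.0 in marker-negative cells. Socs3, a brake on the interleukin-6 family, had 19174, 25644 and 20698. Ptpn2, a phosphatase of JAKs and STATs, had 3690 in Sca-1+ cells, 8688 in ALCAM+ cells and 9215 in marker-negative cells, 2.50-fold lower in Sca-1+ cells relative to marker-negative cells. Ptpn6, a phosphatase abundant in blood cells, had 185.0 in Sca-1+ cells, 169.1 in ALCAM+ cells and 728.7 in marker-negative cells. It was 4.31-fold lower in ALCAM+ than in marker-negative cells, the 1 gene of the 8 lower by that size there (background 2.67%). Pias1, an inhibitor of STAT proteins, was highest in Sca-1+ cells, with 1674, 1280 and 1168 in the same order.

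Interferon genes themselves were dim. Of 12 listed ligand genes 7 had a probe set, and 1, Ifna1, reached the floor, at 102.0 in Sca-1+ cells, against 42.3 in ALCAM+ cells and 65.5 in marker-negative cells. The Ifna genes are near-identical copies, so that probe set may read several of them. Ifnb1 had 43.2, 14.2 and 45.4 and Ifng had 11.4, 1.8 and 9.7 in Sca-1+, ALCAM+ and marker-negative cells, all below the floor.

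**Figure D5:**
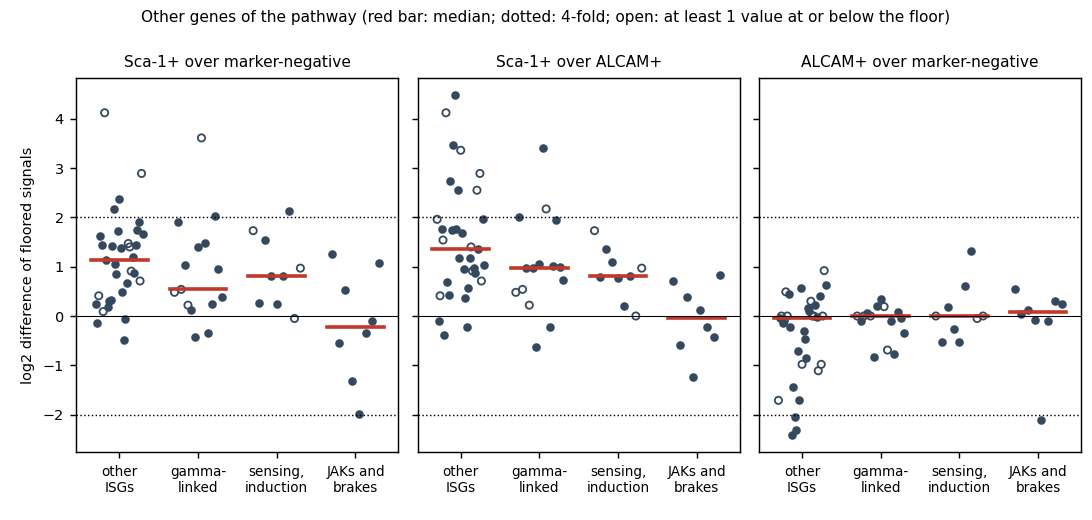
Log2 difference of floored signals for pathway genes outside the member list in the 3 comparisons of single arrays: other interferon-stimulated genes (ISGs), gamma-linked genes, genes of sensing and induction, and JAKs with inhibitors. Red bars are medians (1.13, 0.54, 0.82 and -0.22 in Sca-1+ over marker-negative cells), dotted lines mark 4-fold, and open points have at least 1 value at or below the floor.

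Markers of blood cells moved with these genes in part. Neutrophil genes summed to 16861 in Sca-1+ cells, 563 in ALCAM+ cells and 3749 in marker-negative cells, with 11, 3 and 7 of 12 above the floor, and Ngp, a granule gene, had 4538, 46.5 and 158.5. Relative to marker-negative cells, 6 of the 12 neutrophil genes were higher by at least 4-fold in the Sca-1+ population and 3 were lower by that size. Those 3 encode granule proteins made by early neutrophil precursors: Mpo had 91.4 in Sca-1+ cells, 25.2 in ALCAM+ cells and 1355 in marker-negative cells, Elane had 63.5, 37.3 and 483.0, and Prtn3 had 109.7, 22.3 and 530.5. Macrophage and monocyte genes summed to 2154, 1767 and 1698, with 5, 6 and 7 of 18 above the floor. They did not run one way: Lyz2, the lysozyme gene of macrophages and neutrophils, had 888.0 in Sca-1+ cells, 96.6 in ALCAM+ cells and 262.3 in marker-negative cells, whereas Ctss, a lysosomal protease gene, had 39.9, 342.3 and 208.3. Of the defining markers, Adgre1 had 37.9 in Sca-1+ cells, 45.3 in ALCAM+ cells and 48.1 in marker-negative cells, all below the floor, Csf1r had 166.2, 201.3 and 133.5, and Cd68 had 187.0, 112.5 and 143.6. Siglech, a marker of plasmacytoid dendritic cells, which release much type I interferon, had 29.3, 59.6 and 43.8, below the floor throughout, as was the T cell gene Cd3e at 6.1, 13.8 and 9.3. Dendritic cell genes summed to 6214, 5316 and 4368 in Sca-1+, ALCAM+ and marker-negative cells. The sums of T and NK cell genes (9923, 462 and 778) and of B cell genes (2974, 455 and 562) were mostly Thy1 (9619) and Ebf1 (2691) in Sca-1+ cells, genes that stromal cells also express. The part of neutrophil or other blood cell RNA in the interferon-stimulated signals was not tested.

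Endothelial markers summed to 2105 in Sca-1+ cells, 861 in ALCAM+ cells and 1261 in marker-negative cells, with 2, 4 and 4 of 10 above the floor, and Eng alone had 1172, 410.9 and 670.2. Tek, which encodes an angiopoietin receptor, had 630.6 in Sca-1+ cells and lay below the floor in ALCAM+ cells (28.8) and marker-negative cells (18.8). The other measured markers ran another way. Egfl7 had 71.3 in Sca-1+ cells, 89.9 in ALCAM+ cells and 217.2 in marker-negative cells. Flt4 and Kdr lay above the floor only in ALCAM+ cells, and Vwf and Esam only in marker-negative cells. The part of endothelial RNA in the members' signals was not tested. The CD31 gene Pecam1 stayed under the floor, at 5.2 in Sca-1+ cells, 7.0 in ALCAM+ cells and 9.1 in marker-negative cells. The control RNAs added to the samples were dimmer on the Sca-1+ array: the poly-A controls had geometric means of 404 in Sca-1+ cells, 784 in ALCAM+ cells and 506 in marker-negative cells. Scaled on those controls, the median log2 difference of all genes shifts to 0.27 for Sca-1+ over marker-negative, 0.89 for Sca-1+ over ALCAM+ and -0.58 for ALCAM+ over marker-negative cells, where the share of all genes past 4-fold becomes 7.62% higher and 3.99% lower, 13.5% and 2.06%, and 1.12% and 5.13%. The median of members minus that of all genes becomes 1.08, 0.72 and 0.21. On that scaling Ifitm1 was no longer 4-fold apart, with log2 differences of -1.56 in Sca-1+ over ALCAM+ and 1.69 in ALCAM+ over marker-negative cells.

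The 4-fold threshold lay between near neighbours. In Sca-1+ over marker-negative cells the member just inside was Rtp4, at a log2 difference of 2.10, and the one just outside was Ifngr1, at 1.66. In Sca-1+ over ALCAM+ cells they were Gbp3 at 2.11 and Iigp1 at 1.97.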

How the data were processed

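Gene expression was measured on 3 arrays of mouse endosteal cells, 1 per sorted population, with groups taken from the sample titles. TRIzol served for RNA extraction and the RNA was amplified in a pair of cycles while biotin was built in, per the labels' protocols. The deposited values are linear signal intensities, for which the submitters' processing notes name MAS5 without a version. The number of arrays limits the precision.

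Of 45101 probe sets, 64 controls were set aside, 34945 had 1 gene symbol, 932 had several and named no gene, and 9160 were unlisted. Symbols were checked through Entrez identifiers in a RefSeq table (GRCm38.p6): 34741 were found and 0 symbols changed. Names ending in _x_at or _s_at mark probe sets that can read related transcripts. Signals were floored at 75.4 and turned to log2 with Python 3.11.15, numpy 2.4.6 and pandas 2.3.3. A gene was measured if above the floor on at least 1 array, and called at 4-fold, with 2-fold as a second rule. The procedure was tested on simulated data. All members are named; of other lists, up to 4 genes with large differences, with Socs1, Socs3 and defining markers, were eligible, and other genes named were chosen after their values were seen. Members and lists were chosen with earlier results of these data known. Alternatives were quantile normalization, other floors, other ways to choose probe sets and scaling on control RNAs.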

Additional observations from a re-analysis of the deposited data

Results flagged for a closer look

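A probe set that the comparisons did not use, because its annotation lists both Isg15 and Gm9706, had a signal of 252.2 in Sca-1+ cells, against 131.2 in ALCAM+ cells and 130.6 in marker-negative cells. It stood out because its signal in Sca-1+ cells was 1.93-fold that in marker-negative cells, with 1 array per population and no replicate check. It cannot be assigned to either of these genes alone.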

How the results depend on the processing

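With 1 array per population no replicate could be left out. No paired analysis was possible because each population has 1 array. The counts of members at 4-fold and 2-fold and the medians over all members kept within 1.5 times, or within the disagreement between probe sets, with the floor at the 25th percentile, with probe sets without a suffix preferred and, an alternative chosen after seeing the data, with genes measured by their mean over the 3 arrays. The median of type I-led members in Sca-1+ over ALCAM+ cells did not, at 1.65 in place of 0.87 with the 25th percentile floor. With a floor of 433.9, the pooled 75th percentile, which leaves 29 members measured, members at least 4-fold higher fell to 2 in Sca-1+ over marker-negative and to 2 in Sca-1+ over ALCAM+ cells (Gbp2 and Ifitm3 in both), close to the 4.1% and 4.23% of all 8422 genes measured there, those 2-fold higher to 9 and 6, and the calls of Ifitm1 to 0, as did those 2-fold lower in ALCAM+ over marker-negative cells. Quantile normalization gave 2 members at least 2-fold lower in Sca-1+ over ALCAM+ cells, and averaging all probe sets 1 in ALCAM+ over marker-negative cells. With that averaging Rtp4 was no longer called at 4-fold in either comparison, its log2 difference being a lower bound of 1.12. Scaling on the poly-A or hybridization controls gave 35 or 30 members at least 2-fold higher in Sca-1+ over ALCAM+ cells, and 0 members 4-fold lower. All genes shifted too: the medians were 1.61 or 1.48 over members beside 0.89 or 0.74 over all genes. The median of members minus that of all genes was 0.72 or 0.74, against 0.71 with the authors' scaling. The share of all genes at 2-fold is not given here for any alternative, so these 2-fold counts stand without a background. In ALCAM+ over marker-negative cells both scalings gave 0 members 4-fold higher and 1 member 2-fold higher, and the poly-A scaling 7 members 2-fold lower. No member difference of 4-fold or more changed sign under any alternative run; smaller ones did, among them Ifngr2 and Irf2 in Sca-1+ over ALCAM+ cells under both control scalings.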
